A study of Mus musculus with 8 samples.

Results

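The translation initiation and elongation factors are the proteins that bring ribosome, mRNA and aminoacyl-tRNA together, and their transcripts are described here in Slc7a5 knockout and wild-type CD4+ T cells. They were chosen by name: symbols that begin with Eif1 to Eif6, Eef1 or Eef2, without the kinases that phosphorylate them, the eIF4E-binding proteins and pseudogenes. The name rule found 55 of the 24421 symbols, of which 51 had a count in any library and 50 passed the filter on low counts and were tested.

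The T cells were sorted from knees of male mice, 16 weeks old, in which arthritis had been induced by antigen, an inflammation of the joint started by an antigen against which the animal was immunised. There were 4 Slc7a5 knockout and 4 wild-type libraries, and sex, age, disease and cell type were the same in both genotypes. Slc7a5 encodes the light chain of a transporter that brings leucine and other large neutral amino acids into the cell. How the gene was deleted, in which cells, and whether each library came from its own animal is not stated in the sources used here. The p-values therefore measure only how far these libraries spread, which may be technical.

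Translation begins when eIF2 brings the initiator tRNA to the small ribosomal subunit and eIF3 holds the subunit, while eIF4E, eIF4G and eIF4A bind the mRNA cap and unwind the leader. During elongation eEF1A delivers each aminoacyl-tRNA and eEF2 moves the ribosome to the next codon. Amino acid supply reaches this machinery through GCN2, a kinase that phosphorylates eIF2 when uncharged tRNA accumulates, and through mTORC1, which controls cap binding and the translation of mRNAs that begin with a run of pyrimidines. The elongation factor mRNAs of mammals are known members of that class, and activated T cells raise both ribosomes and factors.

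Stretches of 45 bases around the annotated start of 8 members are shown first, because these are the members whose libraries separated by genotype and the X- and Y-linked pair that differed most between libraries. Each runs 5′ to 3′ on the gene's strand, from 20 bases before to 25 bases from the RefSeq start onwards, in GRCm38.p6. The Eif2s3y window is set on a later start and lies wholly downstream of the gene's first annotated base, 1010562. Capitals mark a run of at least 7 consecutive C or T.
Eef2 (chr10:81176611-81176655, plus strand): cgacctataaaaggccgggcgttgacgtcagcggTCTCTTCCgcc
Eef1a1 (chr9:78481700-78481744, minus strand): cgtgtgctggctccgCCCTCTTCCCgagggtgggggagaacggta
Eif5 (chr12:111538081-111538125, plus strand): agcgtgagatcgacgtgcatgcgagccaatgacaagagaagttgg
Eif1b (chr9:120492586-120492630, plus strand): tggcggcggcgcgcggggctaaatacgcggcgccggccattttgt
Eif2b4 (chr5:31193115-31193159, minus strand): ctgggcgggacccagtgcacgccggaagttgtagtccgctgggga
Eif4h (chr5:134639385-134639429, minus strand): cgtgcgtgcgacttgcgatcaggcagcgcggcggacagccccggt
Eif2s3x (chrX:94212627-94212671, minus strand): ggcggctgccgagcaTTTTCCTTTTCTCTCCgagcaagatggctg
Eif2s3y (chrY:1010575-1010619, plus strand): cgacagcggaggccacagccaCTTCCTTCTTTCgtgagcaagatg

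Eef2, Eef1a1 and both copies of the eIF2 gamma subunit held such a run, and the windows of Eif5, Eif1b, Eif2b4 and Eif4h did not. Counted in bases from the start used, the run began at −5 for Eef1a1 and Eif2s3x, 1 for Eif2s3y and 14 for Eef2. Whether the mRNAs in these cells begin with the run was not tested. Of all RefSeq start windows of this length, 26.6% (8743 of 32851) held one. The letters TATAA, searched on either strand of the 300-base promoter and allowed to overlap other motifs, were present for Eef2, Eef1a1 and Eif2s3y and in 24.9% of all promoters. Promoters were found for 43 of the 55 members, too few to give a share over the members.

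The knockout libraries held 18837650 to 25853856 counts and the wild-type libraries 21873678 to 36436923. Slc7a5 itself, the targeted gene, had 0 counts in all 4 knockout libraries, against 385, 194, 410 and 0 counts in wild-type replicates 1 to 4, so 1 wild-type library did not tell the genotypes apart. Knockout replicate 4 stood apart. It held 5221 genes with a count, against 7684 to 9358 in the other knockout libraries and 7957 to 10139 in wild type, and its Spearman correlations with the other 7 libraries across genes were 0.489 to 0.544. T cell genes were present in all 8 libraries, with a summed level of 9 markers of 5260 to 7526 CPM (counts scaled to a common library size) in knockout and 6928 to 9621 CPM in wild type. All 9 had lower estimates in knockout, and 0 passed the test. Cd4 was at 1.78 CPM in knockout replicate 4, against 344 to 427 CPM in the other knockout libraries and 373 to 570 CPM in wild type. Of 17 markers of monocytes, macrophages and dendritic cells, Adgre1 and Fcgr1 were at 0 in all 8 libraries. The sum of these 17 was 8741, 9939, 2042 and 10892 CPM in knockout replicates 1 to 4, against 3098, 1355, 1254 and 1312 CPM in wild type. It rested mainly on Cd74 and the MHC class II genes, and the other markers of the list were mixed. Of the 9 markers tested, 6 had higher estimates in knockout, and 0 passed the test. Cd68 was at 55.4, 10.2, 38.9 and 58.5 CPM in knockout, against 29.2, 19.8, 29.4 and 47.9 CPM in wild type. Csf1r was at 0, 44.3, 21.9 and 0.05 CPM in knockout and at 0 in all 4 wild-type libraries. Lyz2 was at 0, 0, 25.5 and 0.37 CPM in knockout, against 22.3, 25.7, 24.6 and 22.03 CPM in wild type. Cd14 was at 0, 0, 22.2 and 0.21 CPM in knockout, against 9.01, 33.5, 11.1 and 40.1 CPM in wild type. The part of these markers in the differences between genotypes was not tested. Cd8b1, a CD8 T cell marker, was at 123 CPM in knockout replicate 4, the library with little Cd4. The other markers of that list, Cd8a, Ncr1, Klrb1c and Eomes, were at 0 CPM in that library. The summed markers of CD8 T and NK cells were at most 16.6 CPM in the other knockout libraries and 23.2 CPM in wild type. Summed markers of B cells, of neutrophils and of fibroblasts were each at most 39.6 CPM in knockout and 65.1 CPM in wild type.

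No translation factor passed the test between genotypes. At an adjusted p under 0.05 in edgeR's quasi-likelihood test 0 of 50 members were called, where 0 of 8489 genes (0%) were called in all. At an unadjusted edgeR p under 0.05 there were 3 members, Eif5 and Eif1a with higher and Eef2 with lower estimates in knockout, where 3.84% of all genes reached that level. Estimates were higher in knockout for 22 members and lower for 28, with a median log2 fold change of −0.05, against −0.12 over all genes tested. DESeq2, run without the filter on low counts, called 0 of the 51 members and 387 of the 12849 genes with a count. Genes to which it gave no p-value are in both totals, among them Eif5a2. With limma voom 0 of 50 members and 4 of 8489 genes were called.

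The factors as a class took 1.18%, 1.05%, 1.19% and 1.15% of all counts in knockout replicates 1 to 4, against 1.29%, 1.33%, 1.30% and 1.28% in wild type. The genotypes did not overlap on this share, and the Wilson 95% intervals, which cover counting error only, were at most 0.0048 percentage points to each side. After TMM scaling, which adjusts for the composition of each library, the summed level was 11909 ± 649 CPM in knockout and 12729 ± 361 CPM in wild type (SD, n = 4 each). On that scale the genotypes overlapped, at 11362 to 12667 CPM in knockout and 12325 to 13088 CPM in wild type. The factors did not move together. Eef1a1 averaged 2034 CPM in knockout and 2488 CPM in wild type, and Eef2 418 and 964 CPM. Grouped by role, the summed factors of start codon recognition averaged more in knockout, at 2738 against 2118 CPM. So did those of cap binding, at 2186 against 1912 CPM, and the sums of the other role groups averaged less. In bulk RNA of this kind, fewer cells of a type and less RNA per cell cannot be told apart.

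**Figure D1:**
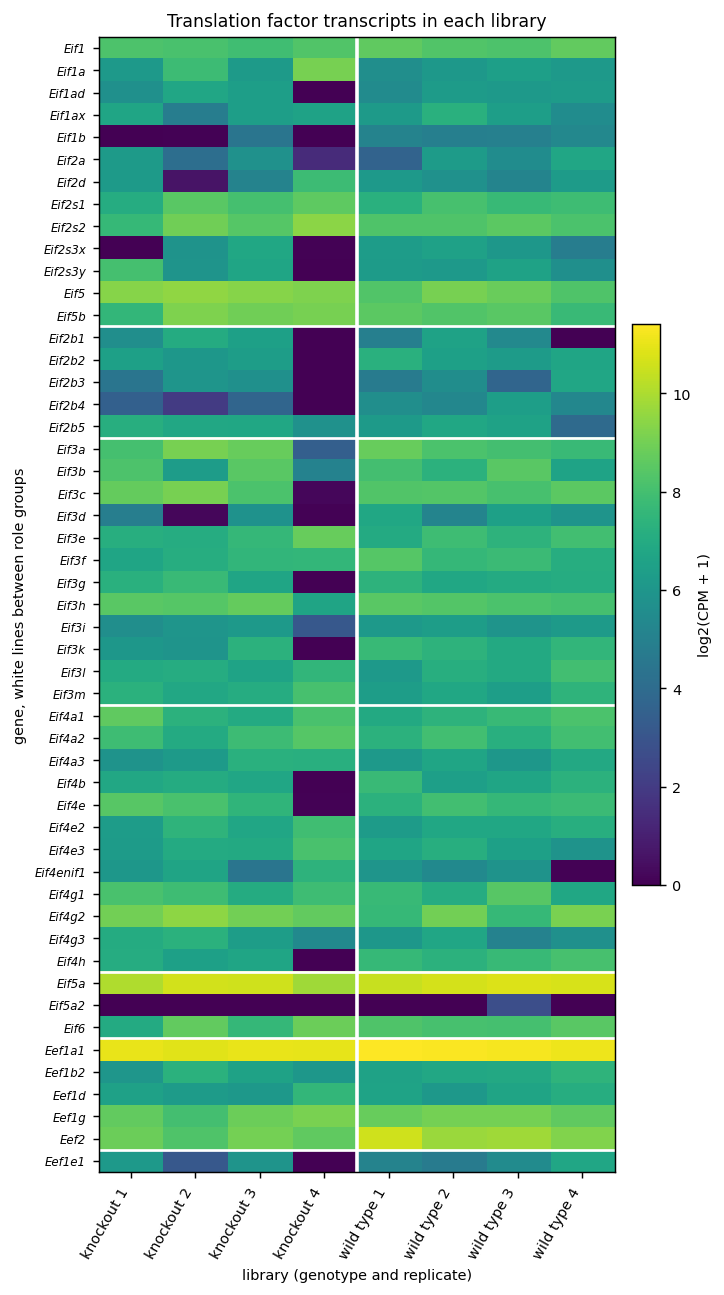
Level of the 51 detected factors (rows, in role groups from start codon recognition to elongation) in the 4 knockout and 4 wild-type libraries (columns), as log2(CPM + 1). Eef1a1 and Eif5a are bright in every library, and the column of knockout replicate 4 is dark for 16 tested factors under 1 CPM, 12 of them with 0 counts there.

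Per kilobase of transcript, Eef1a1 and Eif5a were the most abundant factors. Eef1a1, which delivers aminoacyl-tRNA, averaged 1134 CPM per kb in knockout and 1387 CPM per kb in wild type. Eif5a, which carries hypusine and relieves ribosomes stalled at prolines, averaged 877 CPM per kb in knockout and 1129 CPM per kb in wild type. Of the tested members, Eif4g3, a second large scaffold of the cap complex, was among the lowest, at 16.6 CPM per kb in knockout and 10.4 CPM per kb in wild type.

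Elongation was the role group in which the genotypes did not overlap. The summed level of its 5 tested members (Eef1a1, Eef1b2, Eef1d, Eef1g and Eef2) was 3135, 2693, 3206 and 3237 CPM in knockout replicates 1 to 4, against 4869, 4103, 4015 and 3578 CPM in wild type. The mean was 3068 ± 253 CPM in knockout and 4141 ± 537 CPM in wild type (SD, n = 4 each). Eef1a1 and Eef2 made up most of that sum and did not overlap between genotypes. Eef1b2, Eef1d and Eef1g each overlapped, so the separation of the sum is not a trait of the whole group. Estimates were lower in knockout for 4 of these 5 members, with a median log2 fold change of −0.29. With an offset per library for transcript GC content only Eef2 and Eef1b2 had lower estimates, 3 were higher, and the median was 0.13. The median over all genes was −0.12 without that offset and 0.17 with it. The 9 T cell markers also had lower estimates in knockout, and their part in this difference was not tested. The sixth symbol, Eef1a2, the form of eEF1A used by muscle and neurons, was at 0 in all 8 libraries.

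Eef2, the translocase that moves the ribosome along the mRNA, had 456, 308, 513 and 394 CPM in knockout replicates 1 to 4, against 1528, 839, 872 and 615 CPM in wild type. All 4 knockout libraries lay below all 4 wild-type libraries, and wild-type replicate 1 was far above the others. The log2 fold change was −1.21 (SE 0.29), with an unadjusted edgeR p of 0.00152 and an adjusted p of 0.460. It stayed between −1.37 and −0.89 when each library was left out in turn, with wild-type replicate 1 out at the smaller end. Transcript GC content lay at the percentile 88.3 of tested genes, and correcting for it by an offset per library gave −0.42 (SE 0.37), with an unadjusted edgeR p of 0.271.

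Eef1a1 had 2117, 1902, 2070 and 2045 CPM in knockout, against 2722, 2568, 2409 and 2253 CPM in wild type. The 2 ranges were narrow and did not overlap. The log2 fold change was −0.29 (SE 0.15), with an unadjusted edgeR p of 0.0747, and with the GC offset it had the other sign, at 0.13 (SE 0.36). The median over all genes was −0.12 without the offset and 0.17 with it, so Eef1a1 was below that median in both.

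The exchange subunits of eEF1 were less even. Eef1g, the gamma subunit, had 406, 254, 461 and 546 CPM in knockout, against 427, 514, 516 and 399 CPM in wild type. Eef1b2, which carries the exchange activity, had 63.3, 153, 95.2 and 65.7 CPM in knockout, against 94.1, 115, 118 and 172 CPM in wild type. Both overlapped between genotypes, with log2 fold changes of −0.16 (SE 0.27) for Eef1g and −0.41 (SE 0.53) for Eef1b2. Without knockout replicate 2, Eef1g was at −0.0032 and Eef1b2 at −0.77, and without knockout replicate 4 Eef1g was at −0.33. Eef1b2 was at −0.21 without wild-type replicate 4. With the GC offset Eef1g had the other sign, at 0.57, where the median over all genes was 0.17.

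**Figure D2:**
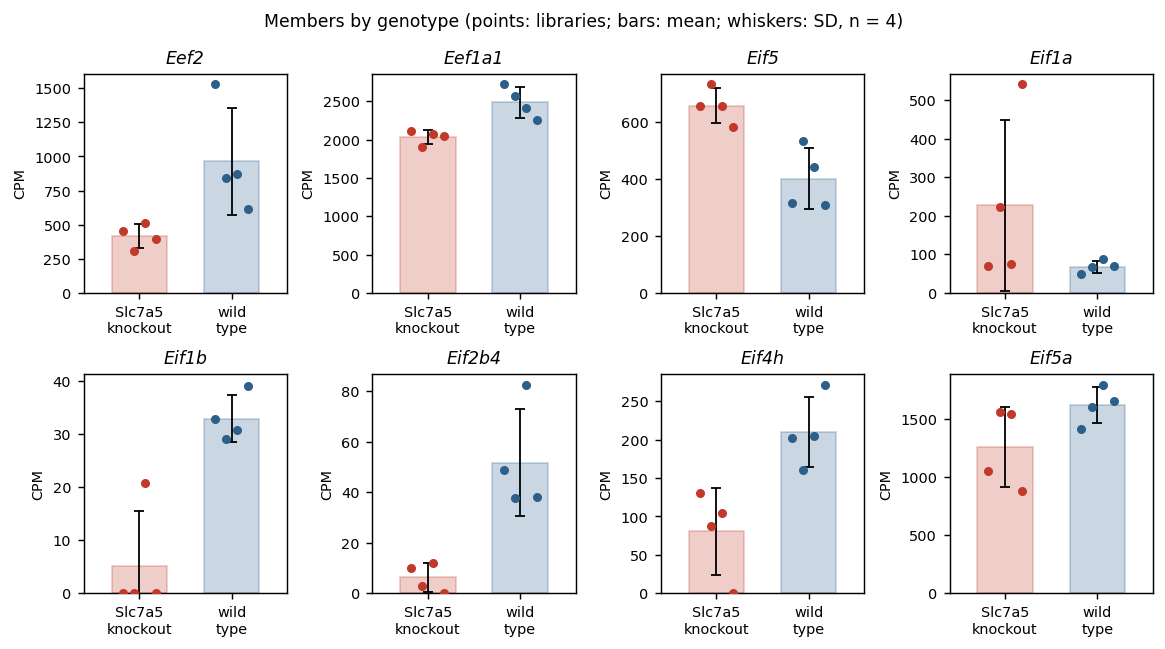
CPM of 8 factors in the knockout libraries (red, left) and the wild-type libraries (blue, right), with points for libraries, bars for means and whiskers for the SD (n = 4 each, each panel with its own axis from 0). For Eef2, Eef1a1, Eif1b, Eif2b4 and Eif4h every knockout point is below every wild-type point, for Eif5 every knockout point is above, and Eif1a and Eif5a overlap.

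Factors of start codon recognition had estimates in both directions. Of the 13 factors that carry the initiator tRNA or check the start codon, 7 had higher and 6 lower estimates in knockout, with a median log2 fold change of 0.38. Their summed level was 2738 ± 535 CPM in knockout and 2118 ± 196 CPM in wild type (SD, n = 4 each), and the genotypes overlapped. Knockout replicate 4 had the highest sum, 3361 CPM.

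Eif5, the GTPase-activating protein of eIF2 that acts when the start codon is found, was the only member with all 4 knockout libraries above all 4 wild-type libraries. It had 655, 731, 656 and 580 CPM in knockout, against 317, 532, 442 and 308 CPM in wild type. The log2 fold change was 0.71 (SE 0.24), with an unadjusted edgeR p of 0.0128 and an adjusted p of 0.718. It was 0.79 (SE 0.38) with the GC offset and 0.61 to 0.86 with each library left out. Over all genes tested, 1.52% had their knockout libraries all above the wild-type libraries, so 1 of 50 members is close to the level of the whole table.

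Eif5b, which joins the large subunit at the end of initiation, had 190, 588, 483 and 529 CPM in knockout, against 367, 314, 364 and 211 CPM in wild type. Knockout replicate 1 was below every wild-type library and the other knockout libraries were above them. The log2 fold change was 0.51 (SE 0.35).

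Eif1a had 69.6, 224, 74.4 and 541 CPM in knockout, against 48.8, 67.1, 86.9 and 70.2 CPM in wild type. Only knockout replicates 2 and 4 were outside the wild-type range. The log2 fold change was 1.74 (SE 0.65), with an unadjusted edgeR p of 0.0205 and an adjusted p of 0.914. Without knockout replicate 4 it was 0.83 (SE 0.50). The transcript was AT-rich, at the GC percentile 4.74, and the estimate with the GC offset was 2.27 (SE 0.90). Its X-linked paralog Eif1ax overlapped between genotypes. Both encode eIF1A, the factor that holds the subunit open for scanning.

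Eif1 and Eif1b encode near-identical forms of the other scanning factor. Eif1 had 302, 282, 236 and 322 CPM in knockout, against 399, 316, 295 and 412 CPM in wild type, with a log2 fold change of −0.32 (SE 0.26). Eif1b had 0, 0.06, 20.8 and 0 CPM in knockout, against 32.9, 29.1, 30.7 and 39.1 CPM in wild type. So 3 knockout libraries had at most 1 count of Eif1b, while the 4 wild-type libraries were alike. The edgeR log2 fold change was −2.66 (SE 2.43), with an unadjusted p of 0.295, and it was −10.50 without knockout replicate 3. The share of Eif1b in the counts of the pair was 2.02 ± 4.03% in knockout and 8.53 ± 0.74% in wild type (SD, n = 4 each). A two-sided exact permutation test of that share gave p = 0.0571, adjusted over 8 pairs 0.457, where 0.0286 is the smallest p it can give.

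The subunits of eIF2 itself overlapped. Eif2s1, the alpha subunit that GCN2 and its relatives phosphorylate, had 132, 354, 260 and 380 CPM in knockout, against 151, 273, 207 and 236 CPM in wild type. Eif2s2, the beta subunit, had 196, 495, 339 and 686 CPM in knockout, against 306, 311, 371 and 285 CPM in wild type. For both, knockout replicate 1 was the lowest of the 8 libraries and knockout replicate 4 the highest. Log2 fold changes were 0.38 (SE 0.37) for Eif2s1 and 0.43 (SE 0.35) for Eif2s2, and 0.19 and 0.10 without knockout replicate 4.

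The gamma subunit has an X-linked and a Y-linked copy in mice, whose reads can be hard to separate. Eif2s3y had 266, 58.6, 102 and 0 CPM in knockout, against 76.2, 71.3, 95.7 and 50.3 CPM in wild type. Eif2s3x had 0, 56.3, 112 and 0.05 CPM in knockout, against 77.8, 92.8, 64.9 and 27.9 CPM in wild type. Knockout replicate 1 thus held only the Y-linked copy (6311 counts), and knockout replicate 4 held 1 count of the pair. The share of the Y-linked copy was 49.7 ± 40.8% in knockout and 54.2 ± 9.46% in wild type (SD, n = 4 each, exact permutation p = 0.743).

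**Figure D3:**
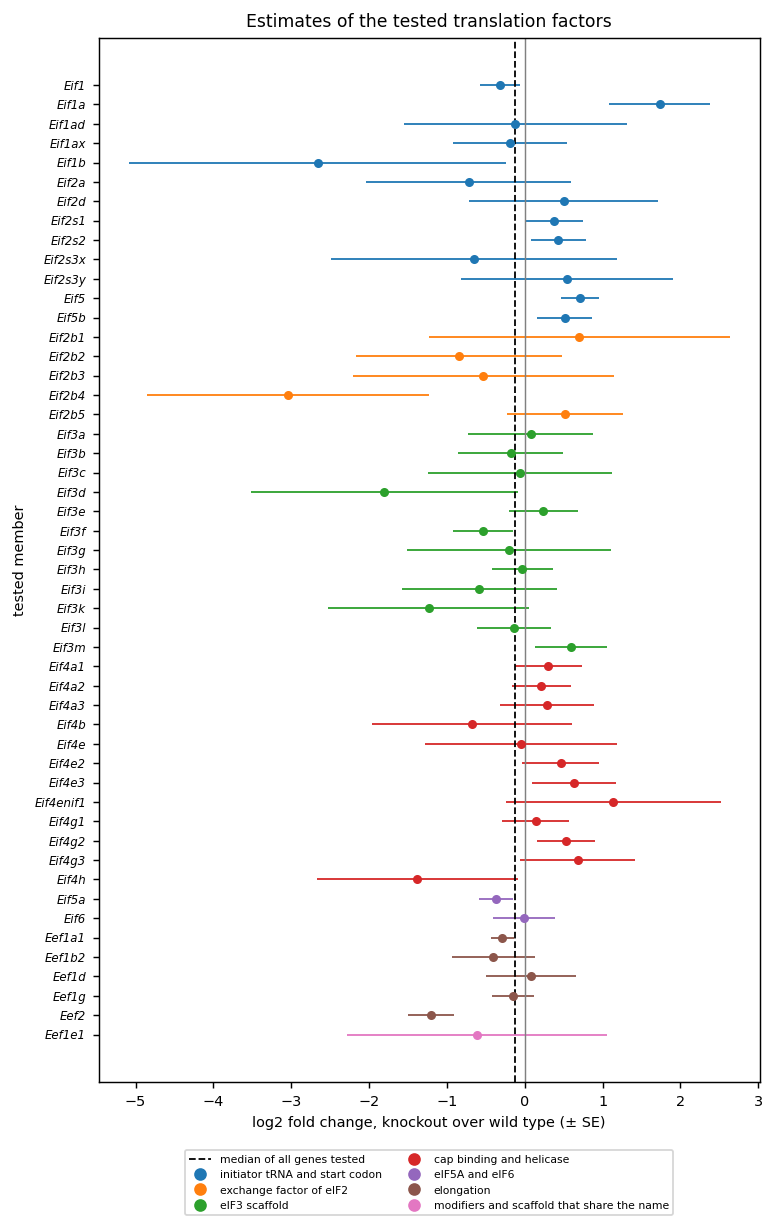
Log2 fold change of knockout over wild type for each of the 50 tested factors, with horizontal lines for ± 1 SE, coloured by role group, and a dashed line at the median of all genes tested (−0.12). Eef2 (−1.21), Eif5 (0.71) and Eif1a (1.74) lie more than 2 SE from 0, and the widest lines belong to factors with 0 counts in some knockout libraries, such as Eif1b and Eif2b4.

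The exchange factor eIF2B, which recharges eIF2 with GTP and is blocked by phosphorylated eIF2, was measured through all 5 subunits. Estimates were higher for 2 and lower for 3, with a median log2 fold change of −0.53. Their summed level was 309, 371, 346 and 53.5 CPM in knockout, against 326, 379, 306 and 265 CPM in wild type. In knockout replicate 4, 4 of the 5 subunits had 0 counts and Eif2b5 alone remained.

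Eif2b4, the delta subunit, had 10.2, 2.94, 12.1 and 0 CPM in knockout, against 48.7, 37.6, 82.7 and 38.0 CPM in wild type. Every knockout library was below every wild-type library, and replicate 4 alone was at 0. The log2 fold change was −3.04 (SE 1.81), with an unadjusted edgeR p of 0.120, and it was −2.64 (SE 1.09) without knockout replicate 4. With the GC offset it was −2.67 (SE 1.75). Eif2b5, the catalytic epsilon subunit, had a higher estimate that did not pass the test. It had 141, 113, 112 and 53.5 CPM in knockout, against 72.6, 110, 94.9 and 14.6 CPM in wild type, with a log2 fold change of 0.52 (SE 0.74). Among the first 3 knockout libraries each value was above every wild-type library.

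The scaffold eIF3 had 12 of its 14 symbols tested, and Eif3j1 and Eif3j2, near-identical copies of 1 loosely bound subunit, were at 0 in all 8 libraries. How reads that match both copies were counted is not stated in the sources used here, so these zeros cannot be read as absence. Estimates were higher for 3 subunits and lower for 9, with a median log2 fold change of −0.16. With the GC offset 8 were higher and 4 lower, with a median of 0.16. The median over all genes moved as well, from −0.12 without the offset to 0.17 with it. The summed level was 2165, 2336, 2490 and 1224 CPM in knockout, against 2527, 2173, 2158 and 2190 CPM in wild type. Knockout replicate 4 alone lay outside the wild-type range, with 0 counts of Eif3g and Eif3k, 3 of Eif3c and 1 of Eif3d.

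Eif3a, the largest subunit and the platform of the complex, had 266, 543, 431 and 9.98 CPM in knockout, against 426, 287, 259 and 213 CPM in wild type. Its log2 fold change was 0.08 (SE 0.80) with TMM scaling and −0.06 with library totals alone, and 0.46 without knockout replicate 4. Not one of the 12 subunits had separate genotypes. Estimates ran from −1.80 for Eif3d, the subunit that can itself bind caps, to 0.60 for Eif3m, a PCI-domain subunit.

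Cap binding and unwinding had 12 of 13 symbols tested, 9 with higher and 3 with lower estimates in knockout, and a median log2 fold change of 0.29. The germline form Eif4e1b was at 0 in all 8 libraries. The summed level was 2186 ± 249 CPM in knockout and 1912 ± 270 CPM in wild type (SD, n = 4 each), and the genotypes overlapped. Eif4e, the cap-binding protein, had 348, 277, 174 and 0.05 CPM in knockout, against 160, 248, 196 and 221 CPM in wild type. Knockout replicates 1 and 2 were above the wild-type range, replicate 3 was inside it and replicate 4 held a single count. The share of Eif4e2, a cap-binding relative that represses translation, in the pair with Eif4e was 48.7 ± 35.5% in knockout and 34.3 ± 3.65% in wild type (SD, n = 4 each, exact permutation p = 0.657), and in knockout replicate 4 it was 99.98%.

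Eif4g1, the scaffold that bridges cap and eIF3, had 279, 229, 128 and 234 CPM in knockout, against 204, 131, 344 and 111 CPM in wild type. Eif4g2, a relative that lacks the cap-binding region and supports cap-independent initiation, had 501, 707, 502 and 403 CPM in knockout, against 201, 502, 196 and 559 CPM in wild type. Wild-type replicates fell into a low and a high pair for Eif4g2, so the genotypes overlapped. Log2 fold changes were 0.14 (SE 0.43) for Eif4g1 and 0.53 (SE 0.37) for Eif4g2.

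Eif4a1 and Eif4a2 encode the helicase. Eif4a1 had 396, 162, 125 and 281 CPM in knockout, against 123, 164, 204 and 291 CPM in wild type. Eif4a2 had 234, 124, 228 and 343 CPM in knockout, against 159, 251, 148 and 244 CPM in wild type. The share of Eif4a1 in the pair was 49.96 ± 12.2% in knockout and 48.9 ± 8.75% in wild type (SD, n = 4 each, exact permutation p = 0.857). The genotype means lay closer together than the libraries of either genotype.

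The helicase cofactors Eif4h and Eif4b had lower estimates. Eif4h had 131, 87.8, 104 and 0 CPM in knockout, against 202, 161, 205 and 272 CPM in wild type. All knockout libraries were below all wild-type libraries, with a log2 fold change of −1.38 (SE 1.29) over 8 libraries. Without knockout replicate 4 it was −0.98 with a much smaller SE of 0.31. Eif4b had 115, 129, 108 and 0 CPM in knockout, against 211, 87.2, 105 and 158 CPM in wild type, and the log2 fold change was −0.68 (SE 1.29), or −0.28 (SE 0.38) without knockout replicate 4.

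Eif5a had 1051, 1564, 1544 and 882 CPM in knockout, against 1419, 1610, 1798 and 1661 CPM in wild type. Knockout replicates 1 and 4 were below wild type and the other pair was inside its range. The log2 fold change was −0.36 (SE 0.22). It was 0.26 with the GC offset, where the median over all genes was 0.17. Its paralog Eif5a2 was seen only in wild-type replicate 3, with 185 counts. Eif6, which keeps the large subunit free until it is needed, had 123, 412, 194 and 465 CPM in knockout, against 303, 274, 264 and 359 CPM in wild type. Its log2 fold change was −0.01 (SE 0.40) with TMM scaling and 0.05 with DESeq2 size factors. Eef1e1, which shares the name but is a scaffold of the aminoacyl-tRNA synthetase complex, had 70.7, 7.72, 59.4 and 0 CPM in knockout, against 33.5, 26.2, 44.2 and 107 CPM in wild type.

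**Figure D4:**
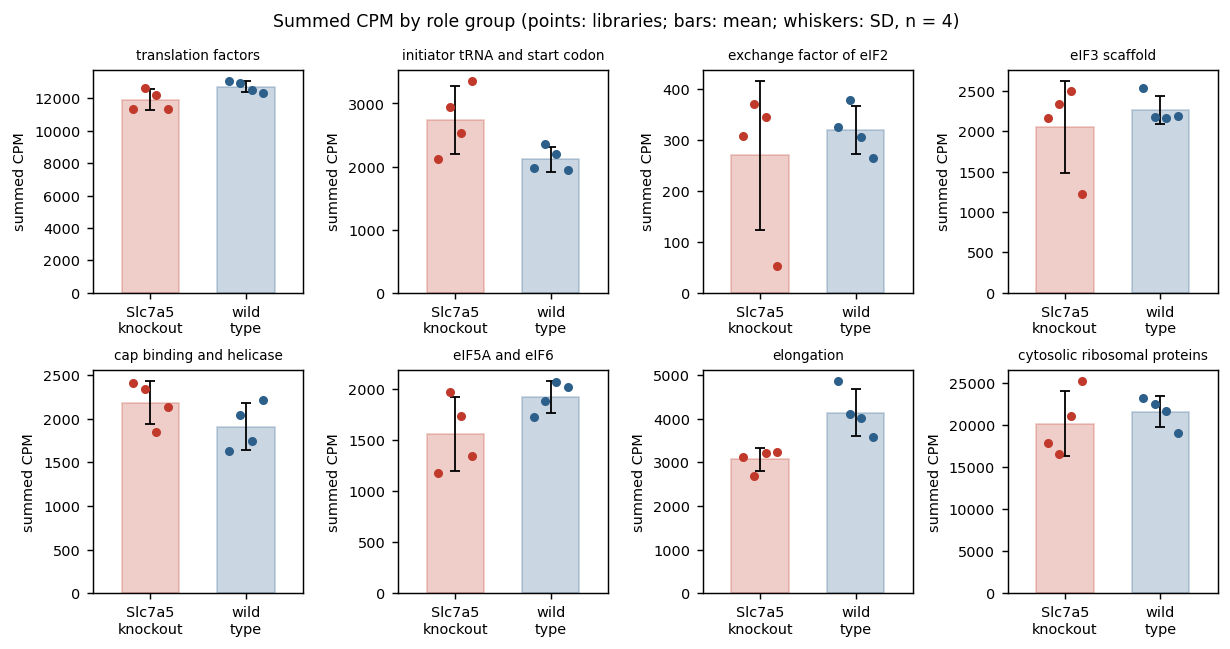
Summed CPM of all translation factors, of 6 role groups and of the cytosolic ribosomal proteins in the knockout libraries (red, left) and the wild-type libraries (blue, right), with points for libraries, bars for means and whiskers for the SD (n = 4 each). Elongation is the one panel in which every knockout point (2693 to 3237 CPM) is below every wild-type point (3578 to 4869 CPM).

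The members whose knockout libraries were all below the wild-type libraries were thus Eef2, Eef1a1, Eif2b4, Eif4h and Eif1b, 5 of 50, where 4.62% of all genes tested had that pattern. Knockout replicate 4 supplied a 0 for Eif2b4, Eif4h and Eif1b. Without it the same 5 factors were below, where 6.46% of all genes were, and Eif5 and Eif2b5 were above, where 3.90% were. Without either library numbered 4, Eif3f joined those below and Eif3m those above, where 10.1% of all genes were below and 5.41% above.

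Detection of the factors differed between libraries. Of the tested members, 2, 0, 0 and 12 had 0 counts in knockout replicates 1 to 4, against 0, 0, 0 and 1 in wild type. The 12 at 0 in knockout replicate 4 were Eif1ad, Eif1b, Eif2b1 to Eif2b4, Eif2s3y, Eif3g, Eif3k, Eif4b, Eif4h and Eef1e1. That is 24% of the tested members, against 43.7% of all tested genes at 0 in that library. Over all libraries, 74% of the tested members were seen in all 8, against 44.6% of all genes tested.

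Transcript GC content moved with the estimates. Across the 50 tested members, which share the same 8 libraries, the Spearman correlation of GC content with log2 fold change was −0.45, and across 8457 genes it was −0.24. With the offset for GC content 33 members had higher and 17 lower estimates in knockout, and the median was 0.27, against 0.17 over all genes. Eef2 and Eif2b4 were GC-rich with lower estimates and Eif5 and Eif1a were AT-rich with higher ones, and all 4 kept their sign with the offset. The part of GC content in these differences was not tested beyond that offset.

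**Figure D5:**
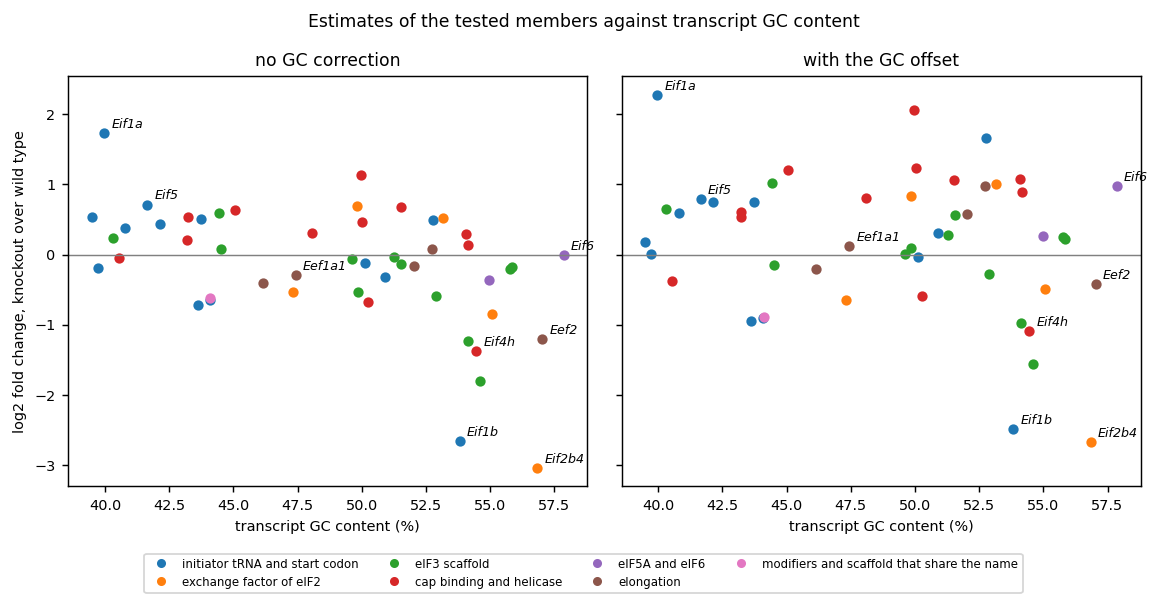
Log2 fold change of knockout over wild type (vertical axis) against transcript GC content in percent (horizontal axis) for the 50 tested factors, without correction (left) and with the GC offset (right), coloured by role group. On the left Eif1a and Eif5 are at low GC content above 0 and Eef2 and Eif2b4 at high GC content below 0, and on the right Eef1a1 and Eif6 lie above 0.

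A pair of neighbouring gene sets were set beside the factors. Of 87 cytosolic ribosomal protein genes 80 were tested, 35 with higher and 45 with lower estimates in knockout and a median log2 fold change of −0.09. Their summed level was 20162 ± 3862 CPM in knockout and 21589 ± 1814 CPM in wild type (SD, n = 4 each), and 0 passed the adjusted threshold. An unadjusted edgeR p under 0.05 was reached by 4, all with lower estimates, where 3.84% of all genes reached it. In 6 the knockout libraries were all below wild type, where 4.62% of all genes had that pattern, so both counts are near the level of the whole table.

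Of 47 regulators and partners of the factors 39 were tested, 14 with higher and 25 with lower estimates, and 0 passed the adjusted threshold. Paip1, which helps poly(A)-binding protein and eIF4A close the mRNA loop, was the single one with an unadjusted edgeR p under 0.05. It had 363, 822, 556 and 649 CPM in knockout, against 331, 383, 203 and 143 CPM in wild type. The genotypes overlapped at 1 library each, and the log2 fold change was 1.17 (SE 0.36), with an edgeR adjusted p of 0.509. Eif4ebp1, the mTORC1 target that blocks eIF4E, had 58.3, 51.0, 78.8 and 0.10 CPM in knockout, against 94.4, 61.7, 57.7 and 56.0 CPM in wild type. The kinase transcripts Eif2ak4, which encodes GCN2, and Eef2k, the kinase of eEF2, were too scarce to test. All 6 mitochondrial translation factors had lower estimates, with a median log2 fold change of −1.20, and each had 0 counts in knockout replicate 4. In that library 43.7% of all tested genes were at 0. All 6 overlapped between genotypes, with SEs of 1.59 to 2.90 and unadjusted edgeR p-values of 0.178 to 0.833.

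Reads of overlapping genes or close copies could be shared. Eif5a overlaps Gps2, Eif4a2 overlaps Rfc4 and Eif5b overlaps Rev1, and the sources used here do not state the strand setting of the counting. Eif1 and Eif1b, Eif1a and Eif1ax, and the copies of the eIF2 gamma gene are alike in sequence, so their split is uncertain. Across the 8 paralog pairs tested, adjusted permutation p-values were 0.457 to 1.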

How the data were processed

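Libraries of sorted-cell RNA were prepared with a kit for low input, per the labels' protocols. The deposited table gives unnormalised read counts for each gene symbol and library. Per the submitters' processing notes, the tools were HISAT2 2.1.0, featureCounts and edgeR 3.28.1 and the build was mm10. Annotation, strand setting, the rule for reads that match several genes and how duplicates were treated are not given in the sources used here.

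Counts were analysed in R 4.3.3 with edgeR 4.0.16: filterByExpr (minimum count 10, minimum total 15), TMM scaling and the quasi-likelihood test with genotype as the only term, over all genes, with Benjamini-Hochberg adjustment and a threshold of 0.05. CPM values are scaled to the TMM library size, log2 fold changes are knockout over wild type, and each SE is the size of the log2 fold change divided by the root of F. Values per kilobase, and GC content, come from GENCODE M21 transcripts of GRCm38. Start sites, promoter windows and positions come from RefSeq GRCm38.p6, the same assembly as mm10. The GC offset was a loess curve per library (span 0.75) on genes above a mean log2 CPM of 5. A two-sided exact permutation test compared the shares of paralog pairs.

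Factors were named with values in every library if their unadjusted p was under 0.05, if their genotypes did not overlap, or if they were on a list of core factors. The members, the lists and this rule were chosen with earlier results of these data known. Alternatives were 2 other filters, 3 scalings, DESeq2 1.42.0, limma 3.58.1 voom with or without quality weights, a block for the replicate number, the GC offset and leaving out each library. The scripts were tested on simulated data. The labels do not say that a replicate number is shared between genotypes, so the numbers were not used as pairs in the main test. Same-numbered libraries did not deviate together (correlations of −0.04 to 0.03 over 3034 genes), which cannot show that they were unpaired.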

Additional observations from a re-analysis of the deposited data

Results flagged for a closer look

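In 54 groups of 4 libraries examined, 1 library stood far from the other 3 in 3 cases, where chance gives about 1 group in 20. Eif1b was at 20.8 CPM in knockout replicate 3, while the other knockout libraries were at 0 to 0.06 CPM. Eif4b was at 0 CPM in knockout replicate 4, against 108 to 129 CPM in the other knockout libraries. Knockout replicate 4 held counts for 38 of the 55 factors, against 48 to 50 in the other knockout libraries. 2 of the 3 cases are thus in knockout replicate 4, the library with the fewest detected genes.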

How the results depend on the processing

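Under none of the alternatives tried did a translation factor pass the adjusted threshold. Across all genes, DESeq2 called 387 of the 12849 with a count, without the filter on low counts. By limma voom 4 of 8489 were called, with or without quality weights, against 0 of 8489 by edgeR. The summed CPM of the members had a log2 ratio of −0.10 with TMM and −0.19 with library totals. The median log2 fold change of the members was −0.05. It was 0.27 with the GC offset, −0.31 with limma voom, −0.30 with the replicate block and 0.05 without both libraries numbered 4. Of 473 recomputed estimates of the 25 named factors 442 kept their direction and 31 did not, in 12 factors. Over the 4 scalings the median of all genes ran from −0.22 to −0.09 and that of the members from −0.17 to −0.03. Eif6 was 0.046 with DESeq2 size factors, 0.045 with DESeq2, 0.98 with the GC offset and −0.32 to 0.26 with each library left out. Eif3a was −0.061 with library totals, −0.77 with voom, −0.15 with the GC offset and −0.35 to 0.46 with a library left out. Eif2s3y was −2.21 with voom and −0.45 to 0.94 with a library left out. With quality weights Eif2s2 was −0.094 and Eif4g1 −0.14. With the GC offset Eif1 was 0.31, Eif5a 0.26, Eef1a1 0.13 and Eef1g 0.57, where the median of all genes was 0.17. With a library left out Eif4g1 ran from −0.053 to 0.55, Eif4a1 from −0.042 to 0.56, Eif4a2 from −0.048 to 0.40 and Eif4e from −0.45 to 0.36. Without changing sign, Eif2b5 ran from 0.18 to 0.76, Eif5b from 0.33 to 0.77, Eif4g2 from 0.33 to 0.82, Eif5a from −0.51 to −0.24 and Eif2s3x from −1.80 to −0.23. The knockout minus wild-type difference of a paralog's share, in percentage points with a library left out, ran from −3.20 to 5.98 for Eif4a1, −21.3 to 12.1 for Eif2s3y, −0.10 to 15.6 for Eif4g2, −1.96 to 10.04 for Eif4g3 and −2.72 to 24.5 for Eif4e2. Without both libraries numbered 4, chosen after seeing the data, Eif4e was 0.39 and Eif4g1 −0.11. With the replicate block 0 genes were called, 18 members had higher and 32 lower estimates, and Eif2s3y was −0.57 and Eif3a −0.58. The cause of these changes was not tested.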
